A study of Mus musculus with 2 samples.

Results

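Lin28a, Lin28b, Hmga1, Hmga2, Igf2bp1, Igf2bp2, Igf2bp3, Trim71 and Dis3l2 are fetal growth regulators of the axis formed by the LIN28 proteins and the let-7 microRNAs. They were chosen by name and not by a measured value, and they are 9 of the 43346 Ensembl genes in the deposited gene tables. All 9 were found by symbol, with 36 transcripts among them. The samples formed 1 group, whole limb of healthy B6NCrl mice taken 13.5 days into embryonic life (E13.5), with male and female embryos pooled and no treatment or altered gene named. The group held 2 libraries, replicate 1 and replicate 2, made from separate tissue samples that share 1 donor entry. Each began with 10 ng of RNA longer than 200 nt, with synthetic ERCC RNAs added. The labels do not say whether fore- or hindlimbs were taken. With 1 group there were no conditions to compare, so the spread between the libraries is given as replicate error, part of which may be technical.

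let-7 microRNAs repress messenger RNAs that pair with their seed, the short stretch near the 5′ end of the microRNA. LIN28A and LIN28B bind let-7 precursors, the terminal uridylyl transferases TUT4 and TUT7 add uridines to the bound precursors, and the exonuclease DIS3L2 degrades them. let-7 in turn represses Lin28a, Lin28b, Hmga2, Igf2bp1 and Trim71, and these genes are known as a fetal programme that fades as let-7 accumulates. Mice without Hmga2 or without Igf2bp1 are known to be small.

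The let-7 family is shown first because its seed defines the sites counted in the genes. RefSeq (GRCm38.p6) gave 9 mature sequences of the 5′ arm in mouse, all 9 with the same bases 2 to 8, printed in capitals. Those below differ from each other only outside the seed.
let-7a: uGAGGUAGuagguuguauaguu
let-7g: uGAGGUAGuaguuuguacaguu
let-7d: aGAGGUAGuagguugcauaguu
miR-98: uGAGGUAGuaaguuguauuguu

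LIN28 proteins recognise the letters GGAG in the stretch between the arms of a let-7 precursor. A search for GGAG between the arms, on the strand of the precursor, found it in 9 of 12 let-7 family hairpins (75.0%). Among all 645 mouse hairpins in which both arms could be located, those of let-7 included, 53 held it (8.22%). The stretches were not matched for length, and arms of let-7 hairpins were also located by sequences named for another copy. The hairpins of let-7c-2, let-7b and miR-98 did not hold these letters in that stretch. A hairpin with the motif (in capitals) and one without it are shown for comparison.
let-7g hairpin, chr9:106178840-106178927, plus strand: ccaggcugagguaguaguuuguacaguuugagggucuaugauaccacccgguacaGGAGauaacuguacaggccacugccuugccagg
let-7b hairpin, chr15:85707319-85707403, plus strand: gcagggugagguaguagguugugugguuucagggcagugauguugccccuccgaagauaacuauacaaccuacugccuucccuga

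The complement of the seed, CTACCTC, was then searched on the sense strand of the 3′ untranslated region (3′ UTR) of each gene's protein-coding transcript with the most reads, in GENCODE M21 models on mm10. It occurred in 8 of the 9 genes, 21 times in all, and in 13 of these matches an A followed, the base that extends a canonical site. Hmga2, Lin28b, Igf2bp1 and Trim71 held 4 matches each, Lin28a held 2, and Hmga1, Igf2bp2 and Igf2bp3 held 1 each. Dis3l2, the enzyme that degrades let-7 precursors, held none in a 3′ UTR of 347 bases. Sites of 30 bases are printed below as DNA on the strand of the gene, with the match in capitals, as examples: from genes with 4 matches, Hmga2 sites 1 and 2, the first sites of Lin28b and Igf2bp1 and the close pair in Trim71, and then the single sites of Igf2bp2, Igf2bp3 and Hmga1.
Hmga2 site 1, chr10:120364217-120364246, minus strand: gccgacattcaatttCTACCTCagcatcag
Hmga2 site 2, chr10:120362980-120363009, minus strand: ccccactcctcaataCTACCTCtgaatgct
Lin28b site 1, chr10:45381015-45381044, minus strand: acccgggcgggaagtCTACCTCatgcaagc
Igf2bp1 site 1, chr11:95961771-95961800, minus strand: gctgtgcgaagtaaaCTACCTCaaggtgtg
Igf2bp2 site 1, chr16:22059466-22059495, minus strand: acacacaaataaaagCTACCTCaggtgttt
Igf2bp3 site 1, chr6:49086780-49086809, minus strand: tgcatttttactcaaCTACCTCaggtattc
Trim71 site 3, chr9:114509040-114509069, minus strand: tttagtatggattttCTACCTCaattttgg
Trim71 site 4, chr9:114509014-114509043, minus strand: ttggcaaaaagttgtCTACCTCacgtcggc
Hmga1 site 1, chr17:27563277-27563306, plus strand: tcctctgttcacaaaCTACCTCtggacggt

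The first match of Hmga2 began at base 21 after the stop codon and that of Lin28b at base 36. The match in Hmga1 was followed by T and began at base 801. Because long 3′ UTRs hold more matches by length alone, each gene was set beside the longest 3′ UTRs of all protein-coding genes, of which 1897 of 20999 (9.03%) held the 7 letters. Among the 2308 of these within 20% of the length in Hmga2, its own included, 15.1% held a match and 3 held 4 or more. Lin28b had 3 such 3′ UTRs with 4 or more among 1271 of like length, Igf2bp1 had 2 among 564 and Trim71 had 4 among 793. Each of these counts included the gene itself. That for Igf2bp1 also included Trim71, and that for Trim71 also included Igf2bp1 and Lin28b. For Lin28a, 51 of 2432 of like length held 2 or more (2.10%). At least 1 match was held by 12.0% of the 2898 of like length for Igf2bp2, 13.3% of the 2786 for Igf2bp3 and 8.14% of the 2789 for Hmga1. For Dis3l2, only 51 of the 1723 of like length held a match (2.96%), so having none was usual at that length. A match is a description of letters and was not tested as a site of repression.

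**Figure D1:**
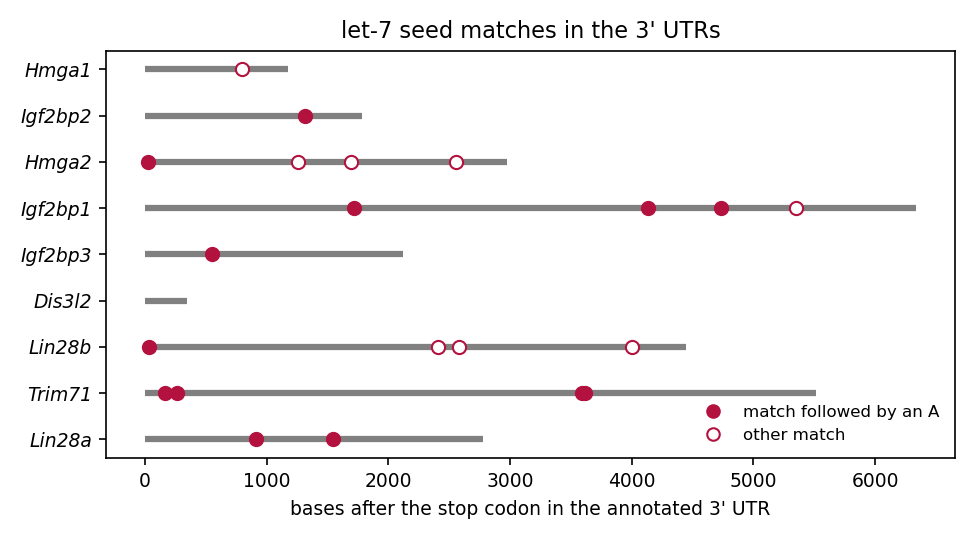
Positions of the letters CTACCTC in the 3′ UTR of each gene, drawn as a grey line of the annotated length, with the x axis in bases after the stop codon. Filled circles are matches followed by an A and open circles other matches. Hmga2, Lin28b, Igf2bp1 and Trim71 hold 4 each, Dis3l2 holds none, and the last 2 of Trim71 lie so close that their circles overlap.

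Expected counts totalled 31927117 for replicate 1 and 43194518 for replicate 2, of which ERCC sequences took 2.11% and 2.07%. The coefficient of variation between libraries beyond counting noise was 5.19% over 17441 genes. Levels are given in TPM, the authors' unit of relative abundance, which divides counts by transcript length. Markers of limb mesenchyme were detected for 10 of 10 genes, with sums of 710 TPM in replicate 1 and 761 TPM in replicate 2. Tbx5, a forelimb gene, had 25.2 and 36.5 TPM, and Pitx1, a hindlimb gene, had 90.4 and 73.8 TPM, so RNA of both fore- and hindlimb genes was present. Erythroid markers were detected for 10 of 11 genes and summed to 13851 and 13982 TPM. Fetal liver markers differed between the libraries, with 74.8 TPM in replicate 1 and 20.0 TPM in replicate 2 summed over 12 genes. Of the 7 liver markers with at least 10 counts in both, 7 were over 2-fold apart, among them Afp with 22.3 and 1.73 TPM and Alb with 5.28 and 0.86 TPM. The liver regulator Hnf4a was near 0, at 0.15 and 0.11 TPM.

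Of the 9 genes, 7 were detected, that is at 1 TPM or more in both libraries, against 34.6% of all 43346 genes and 61.0% of 21474 protein-coding genes. The DNA-architecture genes Hmga1 and Hmga2 and all 3 Igf2bp genes stood above 50 TPM, Dis3l2 stood near 24 TPM, and Lin28b, Trim71 and Lin28a lay at the bottom. In whole tissue, fewer cells with a transcript and less of it in each cell cannot be told apart.

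**Figure D2:**
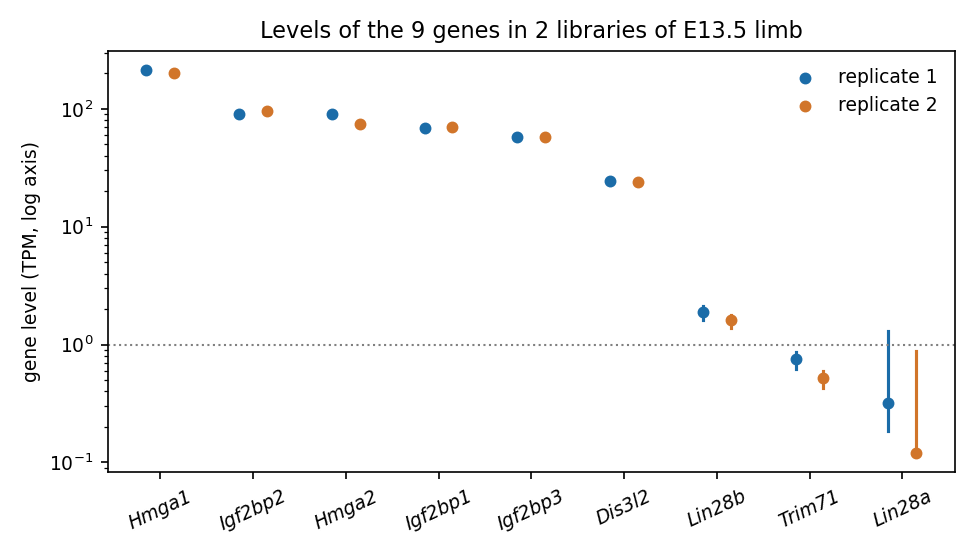
Level of each gene in TPM on a log axis, replicate 1 left of replicate 2. Vertical lines are the authors' credibility bounds, which belong to their posterior mean TPM and need not enclose the plotted value, and the dotted line marks 1 TPM. Hmga1 is highest at 212 and 201 TPM, and Trim71 and Lin28a lie under 1 TPM in both libraries.

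Lin28b encodes an RNA-binding protein that blocks let-7 maturation. The gene, at chr10:45376620-45486395 on the minus strand, had 1.89 TPM in replicate 1 and 1.60 TPM in replicate 2, from 209 and 235 expected counts. It was just inside the detection threshold in both libraries, whose credibility bounds of 1.60 to 2.11 and 1.38 to 1.78 TPM overlapped. Its paralog Lin28a, best known from pluripotent cells, lies at chr4:134003330-134018841 on the minus strand and had 0.32 and 0.12 TPM. These values rest on 5 and 7 expected counts, against a floor of 3 counts, so Lin28a was hardly above the limit of detection. The library with fewer counts had the higher TPM because the authors' mean transcript length for the gene was 849 bases in replicate 1 and 2296 bases in replicate 2. Posterior mean TPM was 0.71 and 0.46, with credibility bounds of 0.18 to 1.31 TPM in replicate 1 and 0.13 to 0.88 TPM in replicate 2, and the bounds overlapped. Pluripotency and germ cell markers were likewise low. Of 10, only Prdm1, which other cells also use, was detected, with 2.66 and 3.56 TPM, and Dppa3 was listed at 0 in both.

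Lin28b exceeded Lin28a by 2.60 on the log2 scale of TPM with 0.1 added, and both libraries gave this direction, with 2.24 in replicate 1 and 2.95 in replicate 2. Ratios between genes were called beyond the spread where both libraries shared the sign and the mean was over 2 times the pooled SD of 500 genes of like level. This ratio was beyond it, against an SD of 0.89, but with 0.01 TPM added the mean of 3.08 was within the spread. The direction was the same under every setting tried, but the size was not fixed by 5 and 7 counts. The log2 ratio was 1.17 with 1 TPM added, 1.43 with posterior mean TPM and 5.11 with expected counts not divided by length.

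Trim71 encodes a ubiquitin ligase and RNA-binding repressor, the mammalian counterpart of the worm let-7 target lin-41. It lies at chr9:114507133-114564369 on the minus strand and had 0.75 and 0.52 TPM, from 145 and 133 expected counts. Both values lay under 1 TPM, although the reads were far above the floor, since its transcript is 9332 bases long. Its credibility bounds of 0.62 to 0.86 TPM in replicate 1 and 0.43 to 0.60 TPM in replicate 2 did not overlap. Lin28b exceeded Trim71 by 1.34 and Trim71 exceeded Lin28a by 1.26 on the log2 scale, both within the spread of genes at such low levels. With posterior mean TPM, Trim71 over Lin28a was 0.088. The call for Lin28b over Trim71 turned to beyond the spread in 4 of the other settings, given in the closing part.

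Dis3l2 encodes the exonuclease that degrades uridylated let-7 precursors and other uridylated RNA, and its loss in people causes an overgrowth syndrome. It lies at chr1:86703808-87050095 on the plus strand and had 24.3 and 23.8 TPM, from 1567 and 2021 expected counts. The libraries differed by less than the spread of genes of like count. Dis3l2 stood 3.72 above Lin28b on the log2 scale, beyond the spread. Its relatives were close to it, Dis3 with 22.8 and 23.2 TPM, within the spread, and Dis3l with 17.7 and 19.2 TPM, 0.38 lower and beyond it. In replicate 2 alone the difference from Dis3l was 0.31 and within the spread. On protein-coding transcripts alone it was 0.12 and within the spread, and Dis3l2 was then 0.22 below Dis3, also within the spread.

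Hmga1 and Hmga2 encode small proteins with AT-hooks that bend DNA and shape chromatin in growing cells. Hmga1, at chr17:27556497-27563674 on the plus strand, was the highest of the 9 genes with 212 and 201 TPM. Its mean of 207 ± 7.59 TPM (SD, n = 2) placed it among the top 1.77% of all genes. Hmga2, at chr10:120361275-120476469 on the minus strand, had 89.8 TPM in replicate 1 and 73.8 TPM in replicate 2, a mean of 81.8 ± 11.3 TPM (SD, n = 2). Hmga2 was lower than Hmga1 by a log2 ratio of -1.34, with -1.24 in replicate 1 and -1.45 in replicate 2, which is 2.54-fold and beyond the spread.

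The Hmga1 level carries an uncertainty from a near copy. Hmga1b, on chromosome 11, had 3.49 and 4.18 TPM, and the main Hmga1 transcript shared 87.2% of its 50-base windows with it. The authors' credibility bounds for Hmga1b were wide, 2.42 to 18.3 TPM in replicate 1 and 3.17 to 13.4 TPM in replicate 2. Even the higher bound was a small part of the Hmga1 level. In the same search, Hmga2 shared 1.42% of its windows with any other gene and Igf2bp1 0.52%, and the remaining 6 genes shared none. Windows were compared in the sense direction only, so bases shared with genes on the opposite strand were not counted.

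The Igf2bp genes encode oncofetal RNA-binding proteins that hold, move and stabilise messenger RNAs such as those of Igf2, Actb and Myc. Igf2bp2, at chr16:22059009-22163299 on the minus strand, had 91.1 and 96.5 TPM. Igf2bp1, at chr11:95957163-96005940 on the minus strand, had 68.1 and 70.5 TPM. Igf2bp3, at chr6:49085223-49214957 on the minus strand, had 57.3 and 57.5 TPM. Libraries differed little beside the gaps between genes, and all 3 pairs were beyond the spread, with Igf2bp1 over Igf2bp2 at -0.44, Igf2bp1 over Igf2bp3 at 0.27 and Igf2bp3 over Igf2bp2 at -0.71 on the log2 scale.

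That order depended on which transcripts were counted. Summed over protein-coding transcripts alone, a setting chosen after the data were seen, Igf2bp2 had 38.2 and 43.6 TPM. Igf2bp1 then had 58.5 and 61.8 TPM, and Igf2bp3 kept 57.3 and 57.5 TPM. Igf2bp1 over Igf2bp2 became 0.56 and Igf2bp3 over Igf2bp2 0.49, both beyond the spread in the opposite direction, and Igf2bp1 over Igf2bp3 became 0.068, within it.

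In the order of all 9 levels, 6 of the 8 neighbouring pairs were beyond the spread. Hmga1 over Igf2bp2 stood at 1.14, Igf2bp3 over Dis3l2 at 1.25 and Dis3l2 over Lin28b at 3.72. Hmga2 lay between Igf2bp2 and Igf2bp1, and both of its gaps rested on 1 library. Igf2bp2 over Hmga2 was 0.020 in replicate 1 and 0.39 in replicate 2, and Hmga2 over Igf2bp1 was 0.40 in replicate 1 and 0.067 in replicate 2. Each was within the spread in the library with the smaller gap alone, so the place of Hmga2 was not firm. Igf2bp1 over Igf2bp2 was -0.42 in replicate 1 and -0.45 in replicate 2, beyond the spread in each, but turned on protein-coding transcripts alone.

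Between the libraries, 0 of the 8 genes with at least 10 counts in each were over 2-fold apart, against 1.25% of 17441 genes. Hmga2 was the gene with a difference beyond the usual replicate error. Its ratio of replicate 1 over replicate 2 was 0.31 on the log2 scale (1.24-fold), which is 3.80 times the SD of genes of like count. Over all genes 4.24% passed 2 such SDs, and 1 of the 8 genes did. The credibility bounds of Hmga2, 85.3 to 89.4 TPM in replicate 1 and 70.6 to 73.9 TPM in replicate 2, did not overlap, which was true of 11.1% of 14986 detected genes.

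Lin28b and Trim71 were also higher in replicate 1, by 0.26 and 0.56 on the log2 scale, which is 1.11 and 1.79 times the SD of genes of like count. Hmga1, Igf2bp1, Igf2bp2, Igf2bp3 and Dis3l2 each differed by 0.08 or less in size. The fetal liver markers given above moved the same way as Hmga2, with 74.8 TPM in replicate 1 and 20.0 TPM in replicate 2, and 12 of 12 were higher in replicate 1. The limb markers were divided, with 5 of 10 higher in replicate 1, among them Pitx1, Tbx4, Hoxa13 and Hoxd13, and 5 lower, among them Tbx5 and Msx1. The erythroid markers summed to nearly the same level in both libraries. The part of these markers in the difference of Hmga2 was not tested.

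**Figure D3:**
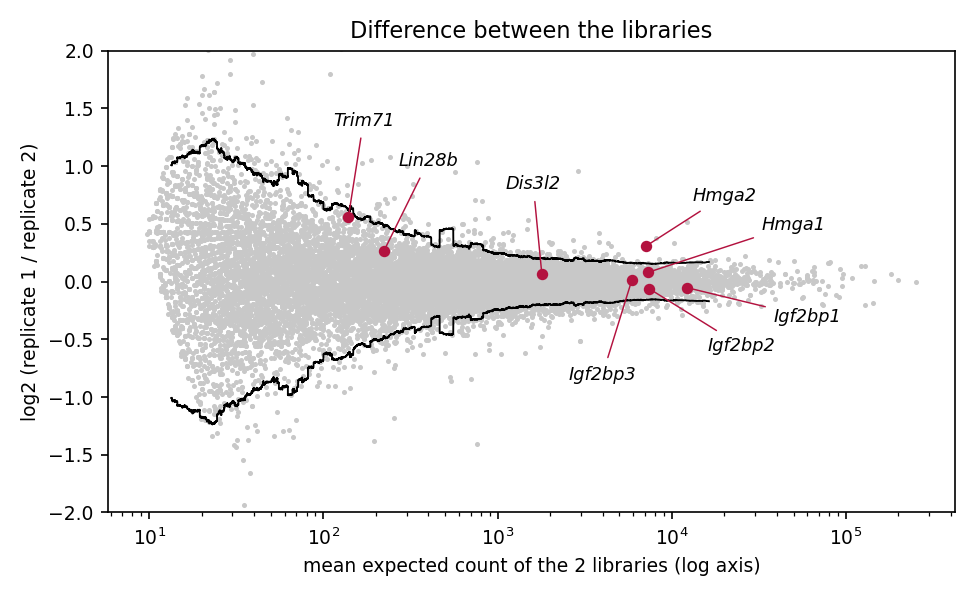
Log2 ratio of replicate 1 over replicate 2 against the mean expected count (log axis) for 17441 genes whose counts reached 10 in both libraries, 19 of which lie beyond the axis. Black lines mark 2 times the SD over 500 genes of like count, and red points are 8 of the 9 genes, all but Lin28a. Hmga2, at 0.31, lies outside the lines and the other 7 lie inside.

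The 36 transcripts included 20 annotated as protein coding, and 3 were listed at 0 in both libraries. All 7 detected genes had the same leading transcript in both. Igf2bp3, Lin28b and Trim71 have 1 annotated transcript each, which therefore takes 100% of the gene. Hmga2 was close to that, since Hmga2-201 took 99.2% of the gene's TPM in replicate 1 and 99.1% in replicate 2. Hmga2-202, annotated as a retained intron, took 0.76% and 0.52%, and Hmga2-203, with 1 more exon, took 0% and 0.38%.

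Igf2bp1-201, the full-length coding transcript, took 85.9% and 87.7% of Igf2bp1. The short noncoding Igf2bp1-202, of 690 bases, took 8.83% and 7.92%. It held 74.1 and 91.2 expected counts, against 10098 and 14154 for Igf2bp1-201, so its share of reads was 0.68% in the mean. The remaining 3 transcripts were each under 3% in both libraries.

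Igf2bp2 was divided nearly evenly between a coding and a noncoding model. Igf2bp2-207, annotated as a retained intron, took 47.0% in replicate 1 and 43.1% in replicate 2, and the coding Igf2bp2-201 took 41.9% and 41.5%. By expected counts the lead turned, with 2828 and 3643 for Igf2bp2-207 and 3023 and 4210 for Igf2bp2-201. A further model annotated as a retained intron, Igf2bp2-205, took 5.95% and 5.45%. The second coding transcript, Igf2bp2-202, was listed at 0 in replicate 1 and took 3.64% in replicate 2.

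All Igf2bp2 models annotated as retained introns together took 57.7% and 54.4% of the gene. Of 13102 detected protein-coding genes, 244 had a mean share as high (1.86%), and among the 5269 that have such a model 4.63% did. The annotated type of the leading model rests on few bases of its own. Igf2bp2-207 shares 3259 of its 3267 bases with Igf2bp2-201 and has 8 bases of its own, with 14 exons against 16. It lacks the first exons of Igf2bp2-201 and begins 74181 bases downstream of its start. Igf2bp2-201 has 640 bases that Igf2bp2-207 lacks, and Igf2bp2-207 holds 1537 of its 1776 coding bases. Reads from the shared bases can be assigned to either model, and reads from the 8 bases alone are particular to Igf2bp2-207.

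Hmga1 was spread over several coding transcripts. Hmga1-203 took 47.2% and 49.8%, Hmga1-201 34.9% and 31.4%, Hmga1-204 7.81% and 9.19%, Hmga1-205 5.95% and 4.12% and Hmga1-206 4.19% and 5.46%. Alternative splicing of this gene is known to give a longer protein, HMGA1a, and a shorter one, HMGA1b, which is not the product of the Hmga1b gene above. In M21, 3 transcripts have a reading frame of 318 to 321 bases and 3 one of 285 to 288 bases. The longer frames took 57.3% in replicate 1 and 59.4% in replicate 2, and the shorter frames 42.7% and 40.6%. Only 1 of the 6 Hmga1 models has the same length in M21 as in the tables, so the assignment of frames to these shares is provisional.

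Dis3l2-201 took 56.7% and 62.0% of Dis3l2, and Dis3l2-202, with 1 more exon, took 24.1% and 21.1%. Dis3l2-205, annotated as a retained intron, took 8.14% and 7.48%, and Dis3l2-206, annotated as a target of nonsense-mediated decay, took 7.35% and 5.37%. Coding transcripts together held 80.7% and 83.1% of the gene. For Lin28a the shares turned between the libraries, with Lin28a-202 at 85.4% and 38.9% and Lin28a-201 at 14.6% and 61.1%. They rest on 5 and 7 expected counts and have no precision.

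**Figure D4:**
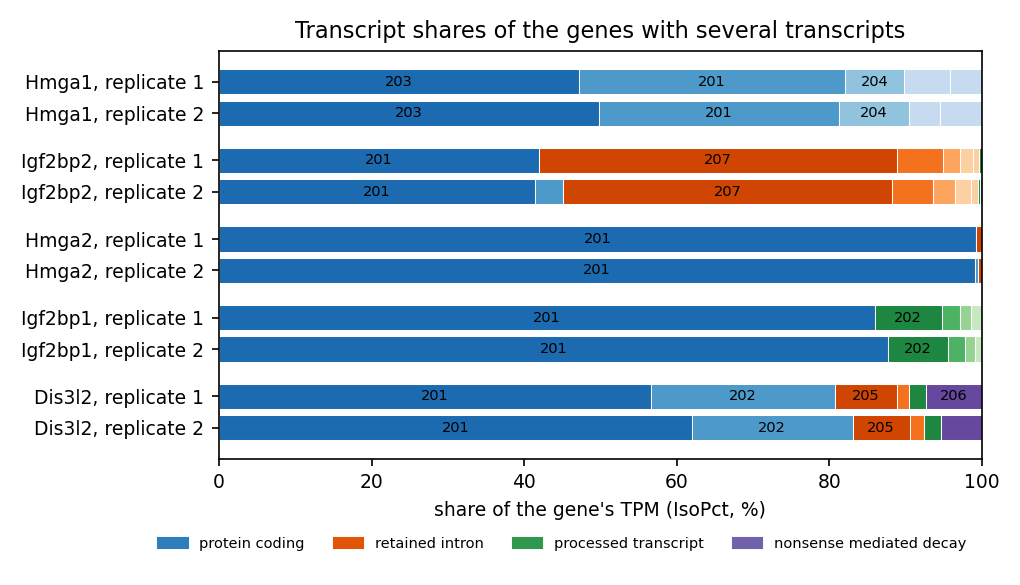
Share of each gene's TPM (IsoPct, percent) by transcript, replicate 1 above replicate 2, for the detected genes with several transcripts. Colours give the annotated type, shades separate transcripts, and numbers are the last part of the transcript names where a share is 7% or more. Hmga2 is nearly all 1 transcript, and Igf2bp2-207 with 47.0% and 43.1% stands beside the coding Igf2bp2-201 with 41.9% and 41.5%.

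The share of each gene's TPM from transcripts whose annotated 3′ UTR held CTACCTC was 100% for Lin28b, Igf2bp3 and Trim71. It was 99.2% in replicate 1 and 99.5% in replicate 2 for Hmga2, 89.9% and 90.4% for Hmga1, and 85.9% and 87.7% for Igf2bp1. For Igf2bp2 it was 41.9% and 45.1%, since Igf2bp2-207 has no annotated 3′ UTR, although its sequence holds the match of Igf2bp2-201. For Dis3l2 it was 0% in both. Where an A had to follow the match, the share of Hmga1 was 0%. The Hmga1 shares are provisional, since models with the same length in M21 as in the tables took only 7.81% and 9.19% of its TPM.

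Of 18 listed genes of microRNA processing and silencing, 18 were detected, with a median of 34.2 TPM, against 17.2 TPM for all detected genes. Hnrnpa1, whose protein binds let-7a precursors, was highest with 928 and 891 TPM, followed by Ran, which powers export of precursors from the nucleus, with 466 and 480 TPM, and the helicase Ddx5 with 298 and 302 TPM. Ago4, an Argonaute, was lowest with 2.39 and 2.55 TPM. Drosha, which makes the first cut, had 36.6 and 42.4 TPM, and Dicer1, which makes the second, had 11.5 and 12.4 TPM.

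Of 15 genes of uridylation and RNA decay, 15 were detected, with a median of 27.9 TPM. Zcchc11, which encodes TUT4, was highest with 102 and 93.0 TPM, then Exosc10 and Xrn2, nucleases of the nucleus, with 86.0 and 86.3 TPM and with 70.5 and 72.9 TPM. Papd7, a noncanonical poly(A) polymerase gene, was lowest with 4.81 and 4.86 TPM. Zcchc6, which encodes TUT7, had 23.4 and 24.2 TPM, lower than Zcchc11 by a log2 ratio of -2.03 (4.08-fold) and beyond the spread. All 15 stood above Lin28b and Lin28a in both libraries.

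Of 10 let-7 genes in the tables, 0 were detected and 10 were listed at 0 in both libraries. 6 of them are too short to have an effective length, and mature let-7 is shorter than the RNA that was kept, so these zeros do not measure let-7. Longer transcripts that span let-7 hairpins on the same strand, looked up after the data were seen, had values for 9 of 12 hairpins. Those around let-7b, let-7c-2 and let-7i had no entry among the genes of the deposited tables, so they have no level here. 3110039I08Rik, around let-7a-2, had 70.5 and 70.9 TPM, and Mir99ahg, around let-7c-1, had 61.6 and 57.7 TPM. Spaca6, around let-7e, had 49.7 and 46.5 TPM, Huwe1, around let-7f-2 and miR-98, had 44.8 and 44.6 TPM, and Wdr82, around let-7g, had 23.2 and 23.0 TPM. The transcript 6720427I07Rik, around let-7a-1, let-7f-1 and let-7d, was lowest with 5.45 and 5.12 TPM. A host transcript's level is no measure of the microRNA.

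Other genes known as let-7 targets were detected for 27 of 30, with a median of 30.0 TPM. The cyclin gene Ccnd2 was highest with 269 and 265 TPM, followed by the imprinted zinc-finger gene Plagl1 with 140 and 149 TPM and the cyclin gene Ccnd1 with 137 and 136 TPM. The receptor gene Acvr1c was lowest with 0.17 and 0.08 TPM. Mycn had 42.5 and 39.8 TPM and Myc 49.8 and 54.7 TPM, a log2 ratio of -0.34 that was beyond the spread and, at -0.23, within it in replicate 1 alone.

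Messenger and long noncoding RNAs known to be bound by IGF2BP proteins were detected for 11 of 12, with a median of 50.9 TPM. Actb was highest with 5682 and 5792 TPM, followed by the growth factor gene Igf2 with 1042 and 1038 TPM and the noncoding H19 with 758 and 729 TPM. The neural and stem cell gene Sox2 was lowest with 0.22 and 0.37 TPM. Of 11 other chromatin genes with AT-hooks, HMG boxes or nucleosome-binding HMGN domains, or listed as partners, 11 were detected, with a median of 149 TPM. Hmgn2 with 2153 and 2121 TPM, Hmgb1 with 1502 and 1402 TPM and Hmgn1 with 598 and 650 TPM were highest, and Pml with 12.7 and 15.2 TPM was lowest. Hmga1 lay within the range of these genes.

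**Figure D5:**
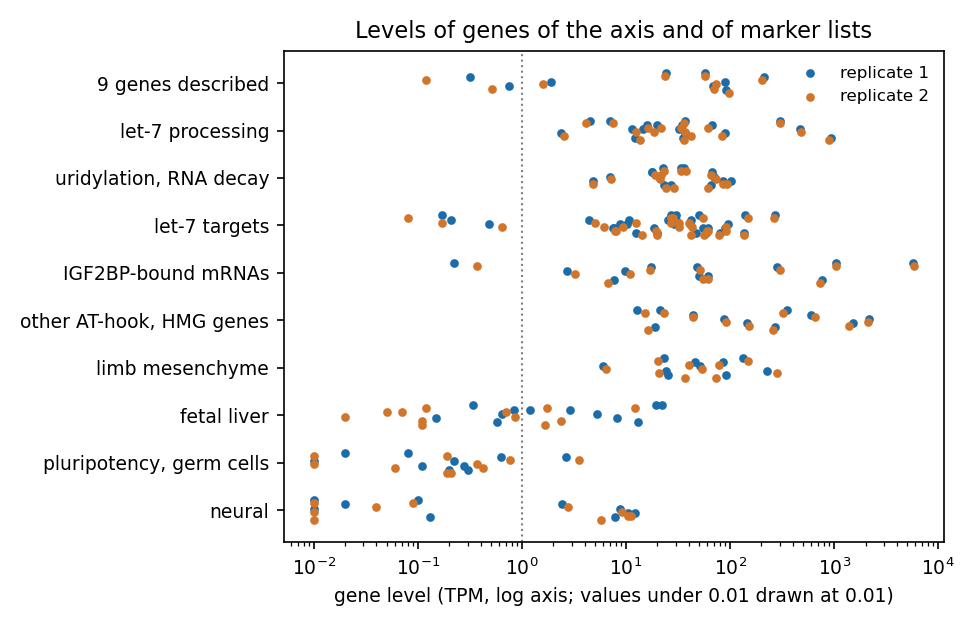
Gene levels in TPM on a log axis for the 9 genes and for lists of the axis and of cell type markers, with replicate 1 in blue and replicate 2 in orange; values under 0.01 are drawn at 0.01 and the dotted line marks 1 TPM. Every gene of let-7 processing and of uridylation and RNA decay lies right of the line, and the fetal liver genes lie further right in replicate 1.

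Among 95 listed genes outside the 9, the gene nearest in level was taken for the detected genes, as the summed distance of log2 values over both libraries. Zcchc6 was nearest to Dis3l2, at 0.08, and Mllt10 nearest to Igf2bp3, also at 0.08. Xrn2 was nearest to Igf2bp1 at 0.10 and Tarbp2, the partner of Dicer, to Hmga2 at 0.20. Hmgb2 was nearest to Hmga1 at 0.70 and Ago4 to Lin28b at 0.96, so these lay further from any listed gene. With 1 group this is likeness of level and not of pattern.

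The use of strand is not given in the sources used here, so reads of overlapping genes on the other strand may be mixed. Overlap was taken over whole gene spans, introns included, so shared exon bases were not shown for these pairs. Malsu1 overlaps Igf2bp3 on the opposite strand and had 60.9 and 56.6 TPM, close to the level of Igf2bp3 itself. Both had fractional expected counts, 5064.68 and 6748.43 for Igf2bp3 and 1030.32 and 1231.57 for Malsu1, so some reads were divided between models. In each library the fractional parts of this pair complete a whole count. Whether the reads were divided between these genes alone was not tested. AI413582 lies opposite Hmga1 with 15.9 and 14.9 TPM, 1700006J14Rik opposite Hmga2 with 2.39 and 1.70 TPM, and Gm6136 opposite Dis3l2 with 10.6 and 13.7 TPM. C130032M10Rik, opposite Trim71, had 0.31 and 0.35 TPM from 4 and 6.07 expected counts.

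Neural markers were detected for 5 of 10 genes, with 42.0 and 39.3 TPM in sum. Stmn2 was highest with 12.1 and 11.0 TPM, and Sox1 and Neurog1 were listed at 0 in both.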

How the data were processed

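The authors deposited 1 gene table and 1 transcript table per library. The build is mm10 per the labels, with GENCODE M4 as annotation per the text deposited beside the tables. For the aligner, quantifier and strand setting, the versions and choices were not given in the sources used here. Deposited expected counts are model-based estimates that divide reads matching several transcripts. Per the file headers, deposited TPM and FPKM values scale these by length and depth, IsoPct is the percent of a gene's TPM from a transcript, and the credibility bounds of TPM (treated as a signal) and posterior means are the authors'. Entries with bare numbers as names (26248), holding 0.000226% and 0.000148% of counts, were left out.

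Symbols matched 42462 of 43346 genes. Positions, transcript types and 3′ UTRs came from GENCODE M21, a later release on mm10, which held all 36 transcripts, 31 at the same length within 1 base. MicroRNA sequences are from RefSeq (GRCm38.p6). Arms were located in each hairpin by the sequences named for it, and for let-7 hairpins also by those named for another copy.

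Expected counts were rounded, and edgeR 4.0.16 in R 4.3.3 gave TMM scaling and the dispersion over genes whose counts reached 10 in both libraries. Ratios between libraries added 0.5 counts. DESeq2 1.42.0 size factors were an alternative. Other values came from Python 3.11.15. The count past 2-fold and the pair rule were checked on simulated counts. For the pair rule these were counts and not TPM, of genes with high counts only, so not at those of Lin28a, Lin28b or Trim71. No p-values were computed, as 1 group of 2 libraries allows no test between groups.

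Named were all 9 genes, their transcripts at 5% or more in either library, genes of the pairs, the 3 highest and the lowest of each list, and the nearest listed gene. Cell type marker genes, host and overlapping genes, Drosha and Dicer1 were added to these, not all list extremes of marker lists are named, and some transcripts under 5% are named. The genes, lists and rules were chosen with earlier results of these data known. Zcchc11, Zcchc6, Papd4, Papd5 and Papd7 are named as in the tables. A few of the named genes are not reported here.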

Additional observations from a re-analysis of the deposited data

How the results depend on the processing

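The count of detected genes was 7 with posterior mean TPM, with FPKM, on protein-coding transcripts and in either library alone, and 8 with a threshold of 0.5 TPM or 10 counts. With DESeq2 size factors, the spike-in total, unscaled TPM or no count filter, 0 of the genes were over 2-fold apart, as with TMM. Of the 16 gene pairs, 16 held their call with 1 TPM added and 16 with 200 genes of like level. With 0.01 TPM added, Lin28b over Lin28a was 3.08, within the spread, and Lin28b over Trim71 1.46, beyond it. With posterior mean TPM, Lin28b over Trim71 was 1.34, beyond the spread, and Igf2bp2 over Hmga2 at 0.22 and Hmga2 over Igf2bp1 at 0.21 were within it.

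Expected counts are not divided by length and so rank long transcripts higher. With them Igf2bp1 over Igf2bp2 was 0.73 and Hmga2 over Igf2bp1 -0.78, both turned in direction and beyond the spread. Dis3l2 over Dis3 at -0.17 and Hmga1 over Igf2bp2 at -0.0097 changed sign but were within it. Hmga2 over Hmga1 at -0.036, Mycn over Myc at -0.059 and Igf2bp2 over Hmga2 at 0.046 were within the spread, and Lin28b over Trim71 at 0.67 and Trim71 over Lin28a at 4.44 beyond it.

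Protein-coding transcripts alone were a setting chosen after the data were seen. There Igf2bp1 over Igf2bp2 was 0.56, Igf2bp3 over Igf2bp2 0.49 and Igf2bp2 over Hmga2 -0.99, each turned in direction and beyond the spread. Dis3l2 over Dis3 at -0.22 changed sign but was within it. Igf2bp1 over Igf2bp3 at 0.068 and Dis3l2 over Dis3l at 0.12 were within the spread and Lin28b over Trim71 at 1.34 beyond it. For single libraries, the range was 0.31 to 0.45 for Dis3l2 over Dis3l, -0.46 to -0.23 for Mycn over Myc, 0.020 to 0.39 for Igf2bp2 over Hmga2, 0.067 to 0.40 for Hmga2 over Igf2bp1, and 4 to 7 detected genes for the fetal liver markers. Posterior mean TPM put 4 let-7 genes at 1 TPM or more, although all 10 had 0 expected counts in both libraries, so these values rest on no reads. With a threshold of 0.5 TPM, 2 pluripotency markers were detected. The cause was not tested where none is named. No paired analysis was possible because there is 1 group.

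Depth limits Lin28a most, at 5 and 7 counts, and intervals and floors cover counting error only. Lin28b and Trim71 have enough reads for a level, but a difference between libraries under their spread was not detectable at this depth. With 2 libraries the spread of each gene is borrowed from genes of like level, and the share of transcripts with common bases is less certain than the gene level.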
